A study of Homo sapiens with 6 samples.

Results

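The 52 genes described here encode glycoproteins of the extracellular matrix, proteoglycans, hyaluronan synthases and the lysyl oxidase (LOX) crosslinking enzymes. They were taken from a fixed list of gene symbols, and every probe set whose platform annotation names one of them was used. All 52 were measured, by 133 of the 54613 probe sets tested, among 19775 genes in all. Only 2 of the 133 also name another gene (1 of LAMA5 and 1 of HAS3). RNA came from MDA-MB-436, an established triple-negative human breast tumour line. The 6 Affymetrix arrays comprise 3 of cells labelled NF1-C2S transfected, which per the series record stably carry an NF1-C2 expression plasmid, and 3 of cells labelled wild type. NF1-C2 is a form of nuclear factor I-C, a transcription factor encoded by NFIC. Both groups were cultured in RPMI with added serum and insulin. No cells with an empty plasmid are named, and the sources used here do not say whether a clone or a pool was profiled. The labels do not say that replicates are separate cultures, and p-values then measure only the spread between these arrays, which may be technical.

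The matrix is a network that cells secrete and hold on to. Fibronectin, fibrillins and fibulins form its fibres, laminins and nidogens build the basement membrane sheet beneath epithelia, and proteoglycans carry sulfated sugar chains that bind water and growth factors. LOX enzymes oxidize lysines of collagen and elastin, which lets the fibres crosslink. Breast tumour lines with mesenchymal features are known for making such matrix themselves.

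Values are deposited log2 expression values, so a change of 1 is a 2-fold difference. A gene was read by its brightest probe set, and a change is said to pass the threshold where limma's adjusted p, over all 54613 probe sets, is under 0.05. A probe set under the median of all probe sets, 4.82, is called dim here. On a dim probe set a change tends to be compressed. Array medians lay between 4.80 and 4.85. Correlations between arrays were 0.992 to 0.997 among transfected arrays, 0.996 among wild type arrays and 0.971 to 0.976 between the groups. The brightest NFIC probe set read 8.22, 8.23 and 8.30 in transfected arrays, against 8.40, 8.49 and 8.52 in wild type arrays (log2 change -0.22, adjusted p = 0.082). The further NFIC probe sets read -0.51, -0.11 and 0.22 (adjusted p = 0.0536, 0.568 and 0.466). No NFIC probe set thus passed the threshold as higher in the arrays labelled transfected. The sources used here do not place these probe sets inside or outside the plasmid's copy, and each direction rests on the labels. The cell type label is epithelial. Of 7 epithelial markers 4 were dim in both groups, with E-cadherin (CDH1) at 3.44 in transfected and 3.42 in wild type arrays. The only epithelial marker to pass was keratin KRT18, at 11.62 in transfected and 12.55 in wild type arrays. Of 4 markers of mesenchymal tumour lines none was dim, vimentin (VIM) fell by 0.52 and ZEB1 fell by 0.41, and CDH2 and CD44 read 0.18 and -0.02 and did not pass. Of 7 fibroblast markers 4 were dim in both groups and 1 changed, FAP, which fell by 1.33 (adjusted p = 0.000129). The mean log2 level of those 7 was 4.85 to 5.17 over transfected arrays and 5.14 to 5.26 over wild type arrays, while their median log2 change was -0.01. The part of this difference in mean level in the results below was not tested. Of 4 leukocyte markers 3 were dim in both groups and 1, CD14, rose by 0.82 (adjusted p = 0.0115). None of 5 endothelial and 3 adipocyte markers passed. A fall in a bulk sample can mean fewer cells that make a message or less message per cell, which cannot be told apart.

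More of the matrix genes passed the threshold as lower than as higher in the transfected cells. Falls past the threshold were found for 24 of the 52 (46.2%) and rises for 5 (9.62%), which leaves 23. Among all 19775 genes, 15.4% fell and 13.6% rose. The median log2 change was -0.27 over the 52 genes, beside 0 over all genes. Falls of at least 2-fold were recorded for 17 of the 52 genes (32.7%), beside 3.84% of all genes. Rises of that size, in 2 genes (3.85%), were close to the 2.89% of all genes. The groups did not overlap in 36 of the 52 genes (69.2%), as in 43.0% of all genes. Over single probe sets, 47 of 133 fell (35.3%, beside 11.4% of all probe sets) and 10 rose (7.52%, beside 10.8%). The genes were put on the list with earlier results of these data known, so these shares describe the list and are not a test of it.

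**Figure D1:**
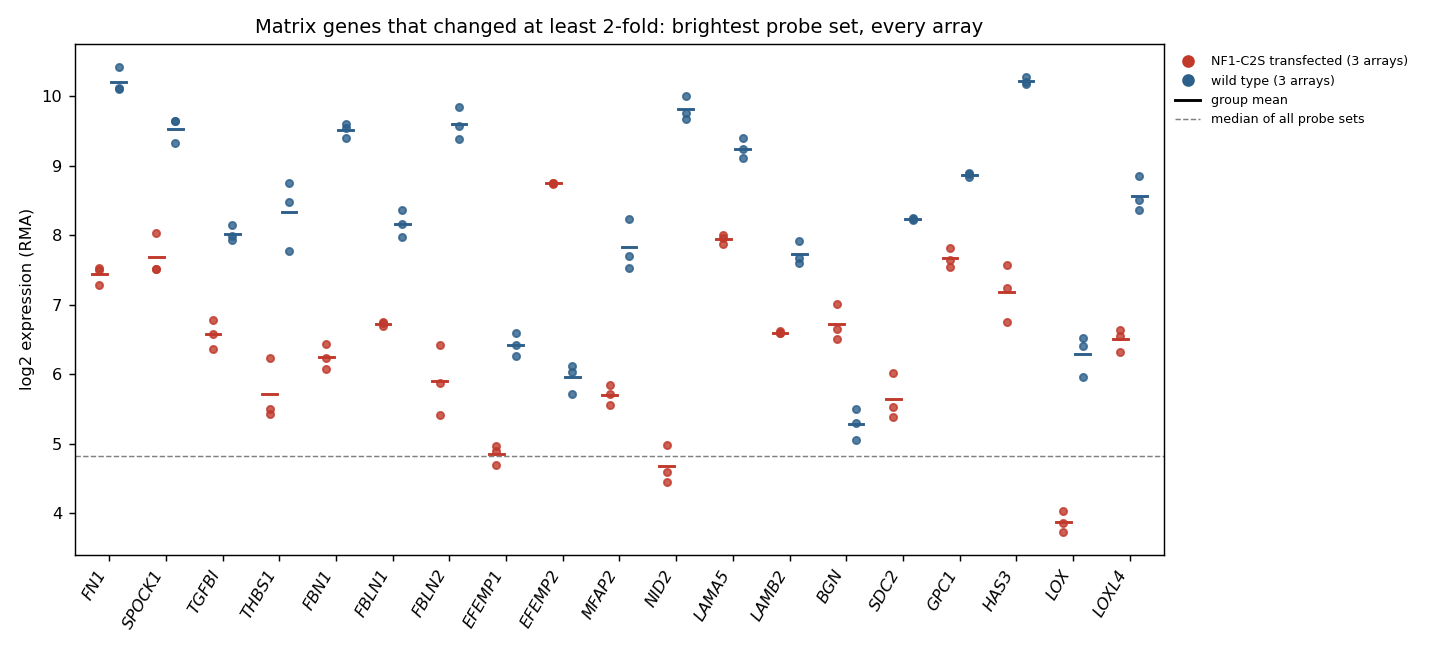
Log2 expression (vertical axis) of the 19 matrix genes that passed the threshold with at least a 2-fold change, by brightest probe set, with a point for each of 3 transfected arrays (left of each pair) and 3 wild type arrays (right), and a bar at each group mean. In 17 genes all transfected arrays lie under all wild type arrays, and in EFEMP2 and BGN they lie above. The dashed line is the median of all probe sets, 4.82.

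Among the 11 cell-binding and matricellular glycoproteins, 5 fell, none rose and 6 did not pass. FN1 encodes fibronectin, which cells grip through integrins and pull into fibrils. It read 7.50, 7.29 and 7.53 in the transfected arrays, against 10.10, 10.12 and 10.42 in the wild type arrays, a 6.84-fold fall (log2 change -2.77, SE 0.12, limma adjusted p = 5.84e-06). THBS1 encodes thrombospondin-1, which binds cell-surface receptors and can activate latent TGF-beta. It read 5.43, 6.24 and 5.50 in the transfected arrays, against 8.48, 8.75 and 7.78 in the wild type arrays (log2 change -2.61, SE 0.29, adjusted p = 0.000449). Replicate 3 was the lowest of the wild type arrays and replicate 2 the highest of the transfected ones, and the groups stayed apart. SPOCK1 encodes testican-1, a secreted proteoglycan related to SPARC. It read 7.51, 7.52 and 8.04 in the transfected arrays, against 9.64, 9.64 and 9.32 in the wild type arrays (log2 change -1.84, SE 0.16, adjusted p = 0.00015). TGFBI, a secreted protein that binds collagens and integrins and is induced by TGF-beta, read 6.79, 6.36 and 6.58 in the transfected arrays, against 7.99, 7.93 and 8.15 in the wild type arrays (log2 change -1.45, SE 0.12, adjusted p = 0.000127). Tenascin-C (TNC), an anti-adhesive glycoprotein, fell by 0.33 (adjusted p = 0.0274), a call that was lost when any 1 of 4 arrays was left out (adjusted p up to 0.0928). Its other probe sets, both dim, read -0.36 and 0.19 and did not pass.

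None of the other 6 glycoproteins passed. SPARC, periostin (POSTN), THBS2, matrix Gla protein (MGP) and osteopontin (SPP1) were dim in both groups on their brightest probe set, with group means from 3.01 to 3.79 in transfected arrays and from 3.10 to 3.78 in wild type arrays. SPP1 read 4.22, 3.61 and 3.53 in the transfected arrays, against 3.25, 3.09 and 3.30 in the wild type arrays (log2 change 0.57, adjusted p = 0.0553, and 0.0293 with the replicate block). Other alternatives also took SPP1 past the threshold, among them quantile, median and cyclic loess normalization (adjusted p = 0.0385 to 0.0491). So did leaving out transfected replicate 1 (0.0346), while the highest adjusted p with 1 array left out was 0.17. Its groups did not overlap, but replicate 1 stood above the other transfected arrays. THBS3, another thrombospondin, had a log2 change of 0.01 (adjusted p = 0.97).

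Elastic fibre and microfibril genes fell in 7 of 11 cases, with 2 rises and 2 not past the threshold. Their median log2 change was -0.92. FBLN2 encodes fibulin-2, which links fibronectin, fibrillin and basement membrane proteins. It read 6.43, 5.88 and 5.41 in the transfected arrays, against 9.38, 9.57 and 9.84 in the wild type arrays, a 12.9-fold fall (log2 change -3.69, SE 0.24, adjusted p = 4.4e-05). FBN1 encodes fibrillin-1, the backbone of microfibrils and the gene of Marfan syndrome. It read 6.08, 6.44 and 6.23 in the transfected arrays, against 9.40, 9.54 and 9.60 in the wild type arrays, a 9.61-fold fall (log2 change -3.26, SE 0.11, adjusted p = 2.81e-06). Every transfected array lay more than 2 log2 units under every wild type array in both genes. MFAP2 encodes MAGP-1, a small glycoprotein that sits on fibrillin microfibrils. It read 5.72, 5.56 and 5.85 in the transfected arrays, against 7.71, 7.53 and 8.24 in the wild type arrays (log2 change -2.12, SE 0.18, adjusted p = 0.000125).

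The short fibulins went both ways. EFEMP1, which encodes fibulin-3, read 4.90, 4.97 and 4.70 in the transfected arrays, against 6.42, 6.26 and 6.60 in the wild type arrays (log2 change -1.57, SE 0.11, adjusted p = 6.48e-05). Its other probe sets, both dim, read -0.44 and -0.04, did not pass, and differed from the brightest (adjusted p = 0.0135 and 0.0036). EFEMP2, which encodes fibulin-4, read 8.74, 8.75 and 8.76 in the transfected arrays, against 6.03, 5.72 and 6.12 in the wild type arrays, a 6.93-fold rise (log2 change 2.79, SE 0.11, adjusted p = 5.34e-06). Fibulin-4 is needed to build elastic fibres and to bring LOX to them, and among the 52 genes no brightest probe set rose further. Its other probe set rose by 3.14 (SE 0.10), and both names end in _s_at or _x_at. FBLN5, which encodes fibulin-5, a protein that also guides elastic fibre assembly, read 5.42, 5.70 and 5.73 in the transfected arrays, against 6.31, 6.41 and 6.89 in the wild type arrays (log2 change -0.92, SE 0.16, adjusted p = 0.00474). The longer fibulin-1 gene, FBLN1, read 6.74, 6.75 and 6.69 in the transfected arrays, against 8.16, 7.98 and 8.37 in the wild type arrays (log2 change -1.44, SE 0.11, adjusted p = 6.92e-05). Its 4 further probe sets all had a smaller change (adjusted p of the difference 0.00043 to 0.00989). Of these, 2 fell, by 0.77 and 0.68, and 2 did not pass, at -0.33 and, on a probe set that was not dim, -0.12. On the brightest probe set the groups overlapped in none of these 4 genes. FBN2, the fibrillin most used in embryonic tissue, rose by 0.46 (adjusted p = 0.0138), the opposite direction to FBN1, but not past the threshold without transfected replicate 2 or wild type replicate 1 (adjusted p = 0.0504 and 0.0553). Its other probe sets, both dim, read 0.23 and -0.12 and did not pass. MFAP5, the MAGP-2 gene, fell by 0.46 on a dim probe set and read 0.02 without probe sets ending in _s_at or _x_at. Elastin (ELN) and EMILIN1, an elastic fibre glycoprotein, had log2 changes of 0.02 and -0.03 and did not pass.

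**Figure D2:**
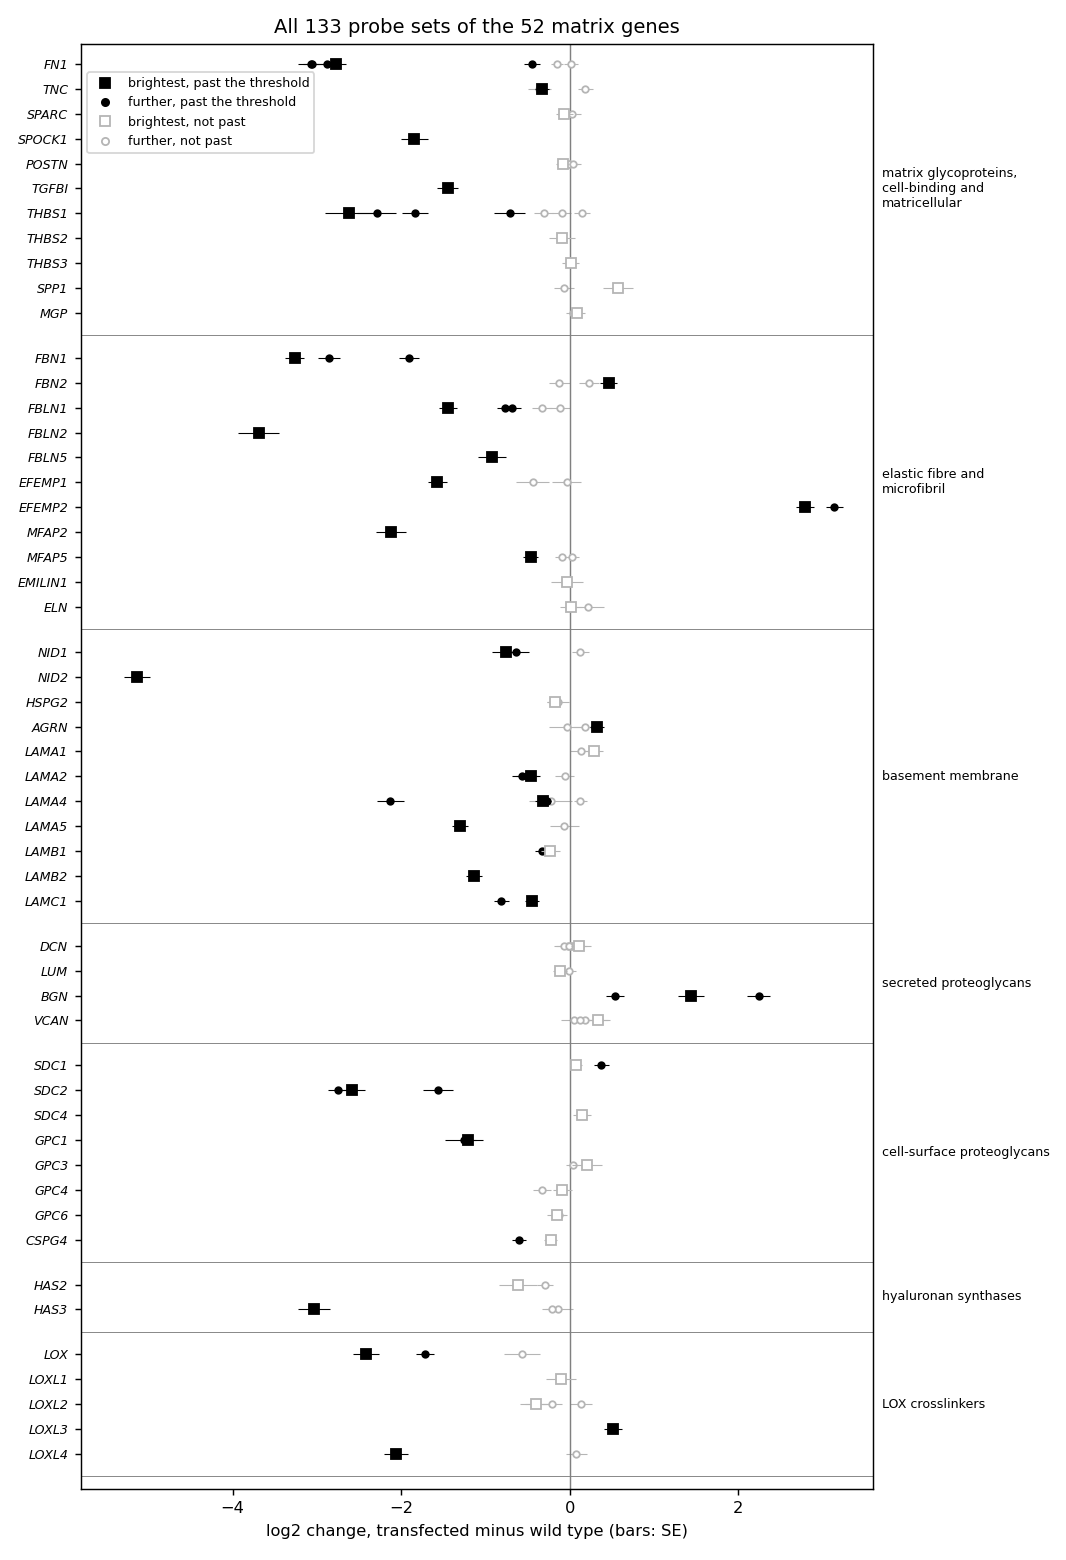
Log2 change, transfected minus wild type (horizontal axis, bars are SE), of all 133 probe sets of the 52 matrix genes, grouped by role, with squares for the brightest probe set of a gene and circles for the others, black where past the threshold. NID2 at -5.14 and EFEMP2 at 2.79 mark the ends of the range on brightest probe sets, and secreted proteoglycans hold no fall past the threshold.

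Basement membrane genes fell in 7 of 11 cases, with 1 rise and 3 not past the threshold, and a median log2 change of -0.45. NID2 encodes nidogen-2, which bridges the laminin and type IV collagen networks. It read 4.46, 4.99 and 4.59 in the transfected arrays, against 9.76, 10.01 and 9.68 in the wild type arrays, a measured fall of 35.2-fold to a dim mean (log2 change -5.14, SE 0.15, adjusted p = 1.49e-06). Its paralog NID1, which makes the same kind of bridge, read 7.76, 7.87 and 8.27 in the transfected arrays, against 8.56, 8.64 and 8.98 in the wild type arrays (log2 change -0.76, SE 0.16, adjusted p = 0.0109). Of its further probe sets 1 fell by 0.64 and a dim one read 0.12. Both nidogens were lower in every transfected array than in any wild type array on the brightest probe set. LAMA5, an alpha chain of epithelial laminins, read 7.96, 7.88 and 8.0 in the transfected arrays, against 9.24, 9.11 and 9.40 in the wild type arrays (log2 change -1.30, SE 0.10, adjusted p = 6.48e-05). The other LAMA5 probe set, which also names the antisense gene LAMA5-AS1 and was not dim, read -0.06 with overlapping groups (adjusted p = 0.875). LAMB2, a beta chain known from kidney and neuromuscular basement membranes, read 6.59, 6.59 and 6.63 in the transfected arrays, against 7.61, 7.68 and 7.92 in the wild type arrays (log2 change -1.13, SE 0.10, adjusted p = 0.000133). LAMC1, the gamma chain shared by most laminins, fell by 0.45 (adjusted p = 0.0053) and by 0.81 on its second probe set.

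The other 4 laminin chains had changes under 0.5 in size on their brightest probe set. LAMA2, the chain of muscle and nerve laminin, fell by 0.45 (adjusted p = 0.014), and 3 of its 4 probe sets fell, but the call was lost without transfected replicate 3 or wild type replicate 1 or 2 (adjusted p up to 0.0574). LAMA4, the vascular chain, fell by 0.32 on its brightest probe set (adjusted p = 0.0485, and 0.051 with the replicate block). The call was also lost when any array but wild type replicate 3 was left out (adjusted p up to 0.154). On another of its 5 probe sets LAMA4 read 3.48, 3.57 and 3.55 in the transfected arrays, against 5.68, 5.99 and 5.31 in the wild type arrays (log2 change -2.13, SE 0.16). LAMB1, the commonest beta chain, read -0.23 (adjusted p = 0.221) and fell by 0.32 on its other probe set (adjusted p = 0.0265). LAMA1, the embryonic alpha chain, read 0.28 (adjusted p = 0.129) with groups that did not overlap. The heparan sulfate proteoglycan perlecan (HSPG2) read -0.17 (adjusted p = 0.279). Agrin (AGRN), which clusters receptors at synapses, rose by 0.32 (adjusted p = 0.0306), and that call was lost when any array but wild type replicate 3 was left out (adjusted p up to 0.107). Without probe sets ending in _s_at or _x_at AGRN read -0.04.

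Among the 4 secreted proteoglycans, BGN rose and 3 did not pass. BGN encodes biglycan, a small leucine-rich proteoglycan that binds collagen and toll-like receptors. It read 6.51, 7.02 and 6.66 in the transfected arrays, against 5.06, 5.50 and 5.31 in the wild type arrays (log2 change 1.44, SE 0.16, adjusted p = 0.000442), and all 3 of its probe sets rose, by 0.53 to 2.24. Their names all end in _x_at or _s_at. Decorin (DCN) and lumican (LUM), which belong to the same protein family, read 0.11 and -0.12 (adjusted p = 0.514 and 0.454), and 6 of 7 DCN and both LUM probe sets were dim in both groups. Versican (VCAN), the large hyaluronan-binding proteoglycan, read 7.96, 8.12 and 7.95 in the transfected arrays, against 7.51, 7.62 and 7.88 in the wild type arrays (log2 change 0.34, adjusted p = 0.0698, and 0.0247 without wild type replicate 3). VCAN also passed with trended and robust moderation (0.0328), array weights (0.0475) or dim probe sets left out (0.0414), and in no other alternative.

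Among the 8 cell-surface proteoglycans, 2 fell and 6 did not pass. SDC2 encodes syndecan-2, a transmembrane heparan sulfate carrier typical of mesenchymal cells. It read 5.39, 6.02 and 5.53 in the transfected arrays, against 8.23, 8.25 and 8.22 in the wild type arrays, a 6.01-fold fall (log2 change -2.59, SE 0.15, adjusted p = 2.8e-05), and all 3 of its probe sets fell. GPC1, a lipid-anchored glypican, read 7.82, 7.65 and 7.55 in the transfected arrays, against 8.84, 8.89 and 8.90 in the wild type arrays (log2 change -1.20, SE 0.09, adjusted p = 7.17e-05). In neither gene did the groups overlap. Syndecan-1 (SDC1), the main epithelial syndecan, read 0.08 (adjusted p = 0.578) on one probe set and rose by 0.38 (adjusted p = 0.0181) on the other. SDC4, a syndecan of focal adhesions, and the glypicans GPC3, GPC4 and GPC6 read 0.14, 0.20, -0.09 and -0.15, none past the threshold. CSPG4, the NG2 proteoglycan, read -0.23 (adjusted p = 0.0714) on one probe set and fell by 0.60 (adjusted p = 0.0015) on the other.

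Hyaluronan is a long sugar polymer made at the cell membrane by HAS enzymes. HAS3 read 7.57, 7.25 and 6.75 in the transfected arrays, against 10.21, 10.28 and 10.18 in the wild type arrays, an 8.19-fold fall (log2 change -3.03, SE 0.19, adjusted p = 3.21e-05). HAS2, the synthase linked to mesenchymal cells, was dim, at 3.12, 3.50 and 3.49 in the transfected arrays, against 3.59, 4.50 and 3.85 in the wild type arrays (log2 change -0.61, adjusted p = 0.103, and 0.0185 with the replicate block). HAS2 also passed without wild type replicate 1 (0.0445) and for the mean over its probe sets (0.0113), and in no other alternative. Neither synthase had overlapping groups.

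Of the 5 LOX family genes, 2 fell, 1 rose and 2 did not pass. LOX itself, the enzyme that starts collagen and elastin crosslinks, read 3.74, 4.03 and 3.87 in the transfected arrays, against 5.96, 6.53 and 6.41 in the wild type arrays, a 5.35-fold fall to a dim mean (log2 change -2.42, SE 0.16, adjusted p = 3.83e-05). A second probe set fell by 1.71 and a dim one read -0.56 and did not pass, both less than the brightest (adjusted p of the difference 0.0042 and 0.00756). LOXL4, a related amine oxidase, read 6.33, 6.64 and 6.56 in the transfected arrays, against 8.36, 8.51 and 8.85 in the wild type arrays (log2 change -2.06, SE 0.14, adjusted p = 5.17e-05). Its other probe set, dim in both groups, read 0.08 (adjusted p = 0.753), a difference of 2.14 from the brightest (SE 0.18, adjusted p = 0.000409). On the brightest probe sets all transfected arrays lay under all wild type arrays in both genes. LOXL3, another enzyme of the family, rose by 0.51 (adjusted p = 0.0119), a call lost without wild type replicate 2 or 3 (adjusted p = 0.0505 and 0.0518). LOXL2, which also oxidizes lysines of type IV collagen, read 10.09, 9.99 and 9.67 in the transfected arrays, against 10.26, 10.19 and 10.50 in the wild type arrays (log2 change -0.40, adjusted p = 0.0715, and 0.0321 without transfected replicate 1). LOXL2 also passed with trended and robust moderation (0.0162), array weights (0.0428) or dim probe sets left out (0.0454), and in no other alternative. LOXL1, the elastic fibre member, read -0.11 with overlapping groups (adjusted p = 0.778).

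Probe sets of a gene often disagreed in how far it changed. For each gene the change of every further probe set was tested against that of the brightest one, over all 21316 such pairs. At least 1 pair differed in 18 of the 38 matrix genes with several probe sets of their own (47.4%), beside 23.8% of all 10523 such genes. The 18 include FN1, THBS1 and FBN1, which were known beforehand to disagree. Falls of at least 2-fold were also more common among the 52 matrix genes (32.7%, beside 3.84% of all genes). The part of either in this difference of shares was not tested. In no such pair of a matrix gene did both probe sets pass in opposite directions. For FN1, 4 bright probe sets fell by 2.77 to 3.07, and all end in _x_at or _s_at, which mark probes that may match other transcripts. Another, 214701_s_at, read 5.20, 5.21 and 5.40 in the transfected arrays, against 5.66, 5.67 and 5.82 in the wild type arrays, and fell by 0.45, which is 2.33 less than the brightest one (SE 0.10, adjusted p = 4.01e-05). The dim 1558199_at and 214702_at read 0.02 and -0.15, so the FN1 call rests on probe sets with those suffixes.

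THBS1 was read in the same graded way. The 3 bright probe sets fell by 1.83 to 2.61, and 201107_s_at, at 4.76, 4.17 and 4.09 in transfected arrays against 5.13, 5.19 and 4.83 in wild type arrays, fell by 0.71 (difference from the brightest 1.90, SE 0.33, adjusted p = 0.0073). The 3 probe sets without those suffixes were dim in both groups and read -0.31 to 0.15, none past the threshold, and the THBS1 call rests on the others. For FBN1 all 3 probe sets fell, by 3.26, 2.86 and 1.91. The smallest of these falls, on 235318_at, was to 3.75, 4.17 and 4.04 in transfected arrays, against 5.88, 6.0 and 5.80 in wild type arrays, and differed from the brightest by 1.36 (SE 0.11, adjusted p = 0.000364). FN1, THBS1 and FBN1 were picked beforehand as genes whose probe sets disagree in these data. Their p-values here describe that disagreement and are not a test of it. HAS3 was added after its values were seen, and fell by 3.03 on 223541_at alone. Its 1552980_at read -0.21, a difference of 2.82 (SE 0.20, adjusted p = 0.000178), and 228179_at, which also names UTP4, read -0.14.

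**Figure D3:**
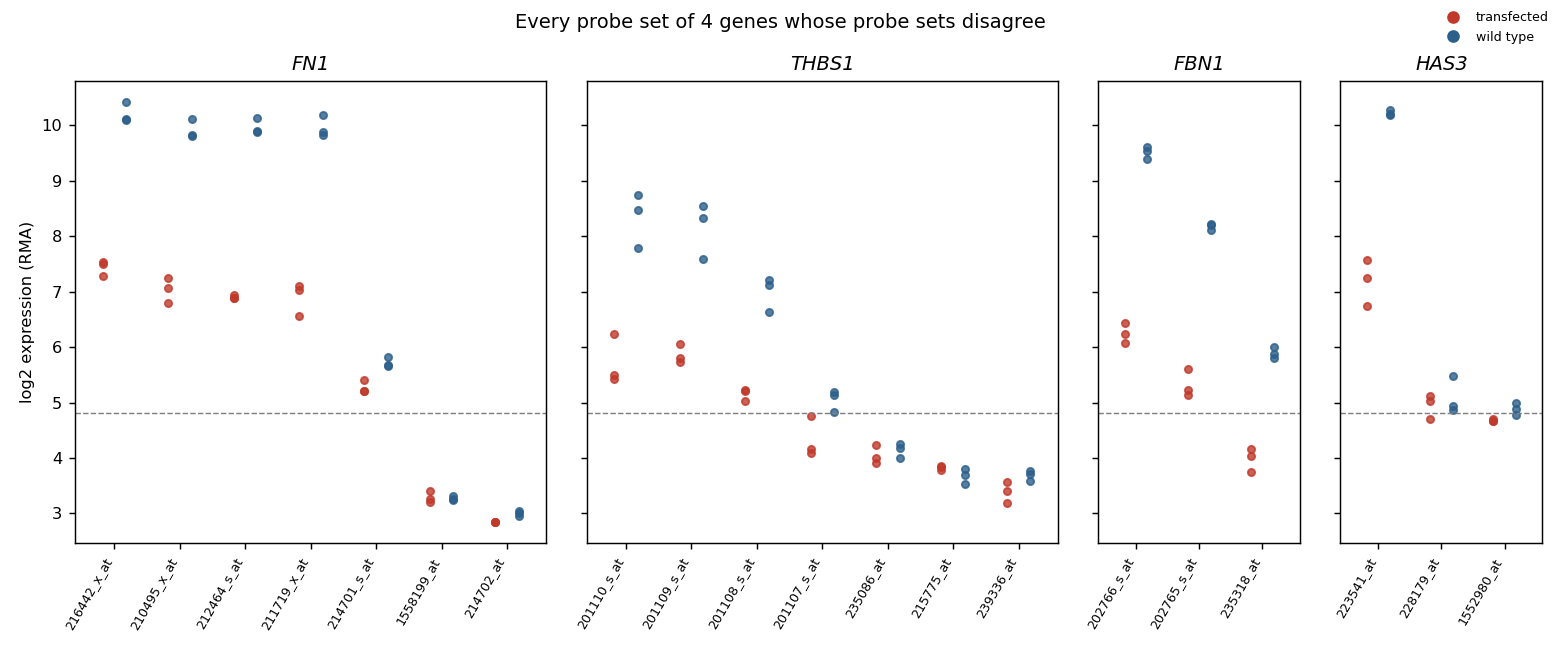
Log2 expression (vertical axis) on every probe set of FN1, THBS1, FBN1 and HAS3, brightest at the left of each panel, with a point for each transfected array (left of each pair) and wild type array (right). The groups lie far apart on the bright probe sets, while on probe sets near or under the dashed median of all probe sets, 4.82, they lie close together in FN1, THBS1 and HAS3 but not in FBN1. Of these, 214701_s_at of FN1 (-0.45) and 201107_s_at of THBS1 (-0.71) still passed the threshold as lower, with groups that did not overlap.

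Over the 11 genes that fell at least 2-fold and have more than 1 probe set, 15 of 29 further probe sets fell too, none rose and 14 did not pass, of which 10 were dim in both groups. Among all probe sets 11.4% fell and 10.8% rose. These 11 genes were picked by the fall of their brightest probe set, so the count describes them and does not test the falls. Of all 133 matrix probe sets, 48 were dim in both groups, and 2 of those passed the threshold, both lower. How many dim probe sets passed over the whole array was not counted, so the 2 are not set against a general share. The part of probe set brightness in the disagreements was not tested.

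**Figure D4:**
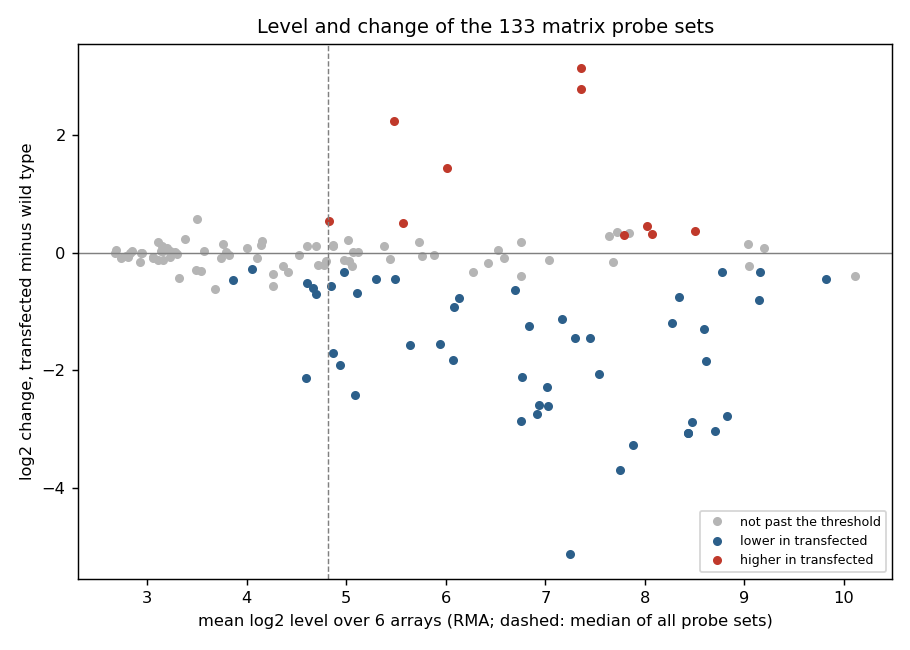
Log2 change, transfected minus wild type (vertical axis), against the mean log2 level over the 6 arrays (horizontal axis) for the 133 matrix probe sets, each point 1 probe set, with falls past the threshold in blue, rises in red and the rest in grey. Probe sets left of the dashed median of all probe sets, 4.82, mostly lie near 0, and 2 of the 48 dim in both groups passed the threshold. The share over all dim probe sets was not counted.

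Some of the matrix genes have neighbours along the chromosome that were lower. The median log2 change of the 10 measured genes on each side was -0.3 or lower for 6 of the 52 genes, where the 5th percentile over all genes was -0.27. These were LAMB2 (-0.61, with 13 of 20 neighbours lower), SDC2 (-0.60, 14 of 20), HAS2 (-0.52, 12 of 20), MGP (-0.40, 11 of 20), FBLN2 (-0.40, 11 of 20) and GPC1 (-0.37, 9 of 20), of which HAS2 and MGP did not themselves pass the threshold. With the neighbours' change subtracted array by array, SDC2 fell by 1.93, FBLN2 by 3.19, GPC1 by 0.73 and LAMB2 by 0.53, all still past the threshold, while HAS2 read -0.04. The same step ended the call of LAMA4 (-0.10, adjusted p = 0.428) and made calls of MGP (0.48, adjusted p = 0.00713), CSPG4 (-0.50, adjusted p = 0.00148), LAMB1 (-0.33, adjusted p = 0.0474) and SPP1 (0.54, adjusted p = 0.0424). NID2, FBN1, FN1 and HAS3 had neighbours that moved by -0.10 to 0.01.

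**Figure D5:**
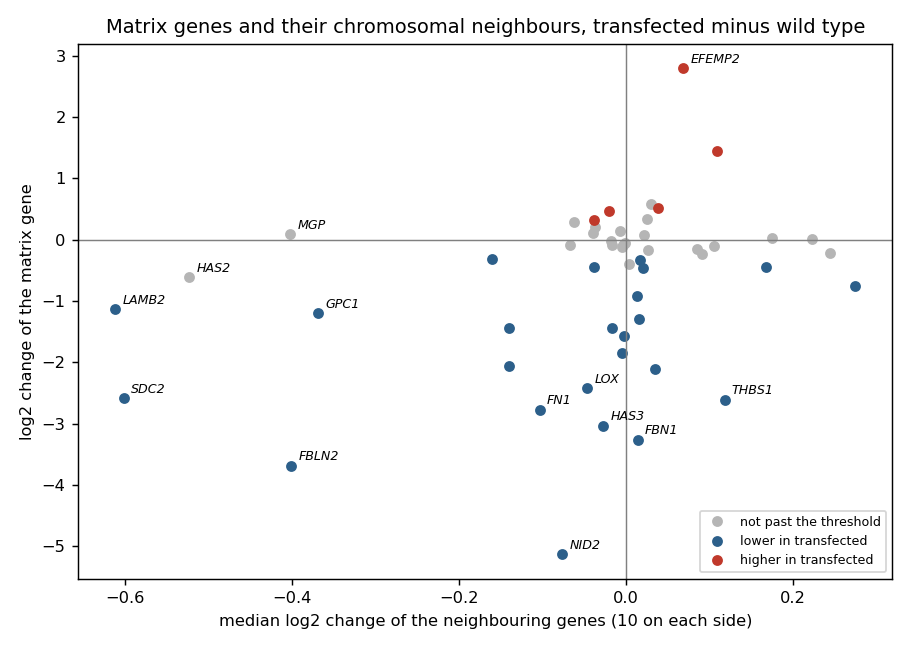
Log2 change of each of the 52 matrix genes (vertical axis) against the median log2 change of the 10 measured genes on each side of it along the chromosome (horizontal axis), both transfected minus wild type, each point 1 gene, coloured as past the threshold lower (blue), higher (red) or not past (grey). SDC2, LAMB2, HAS2, FBLN2, MGP and GPC1 lie left of -0.3, and the deepest fall, NID2 at -5.14, has neighbours near 0.

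Because the plasmid carries a nuclear factor I protein, the 250 bases before the start sites of the matrix genes were read for its motif. Nuclear factor I dimers bind a pair of half-sites, TTGGC and GCCAA, that face each other across 5 bases. RefSeq promoters (GRCh38.p14) were found for 38 of the 52 genes, 46 promoters in all since some genes have several. The paired site was in none of the 46, and in 10 of all 35116 promoters (0.0285%). A half-site on either strand was in 16 of the 46 (34.8%), beside 40.8% of all promoters. By direction, it was in 8 of 25 promoters of genes that fell, in 0 of 5 of genes that rose and in 8 of 16 of genes that did not pass. Matrix promoters had a median GC content of 68.2%, beside 58% for all promoters. Of the 22 half-sites, 4 also hold the letters of a CCAAT box. These letters are a description of the windows and say nothing of binding. The promoters below belong to the genes with 1 promoter entry that fell by at least 2.5 and hold a half-site, shown with the half-sites in capitals, and to both genes that rose at least 2-fold, which hold none.

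NID2 (GRCh38.p14, chr14:52069060-52069309, minus strand): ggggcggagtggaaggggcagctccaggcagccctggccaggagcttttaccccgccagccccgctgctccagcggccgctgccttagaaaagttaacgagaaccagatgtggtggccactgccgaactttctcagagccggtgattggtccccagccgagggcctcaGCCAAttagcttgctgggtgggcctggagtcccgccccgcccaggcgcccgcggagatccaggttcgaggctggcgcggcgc
HAS3 (GRCh38.p14, chr16:69107290-69107539, plus strand): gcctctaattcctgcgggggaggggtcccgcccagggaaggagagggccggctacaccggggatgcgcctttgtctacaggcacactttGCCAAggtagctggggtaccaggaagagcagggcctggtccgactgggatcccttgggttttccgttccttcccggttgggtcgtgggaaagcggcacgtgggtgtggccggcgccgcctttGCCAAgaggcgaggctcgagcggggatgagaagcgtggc
FN1 (GRCh38.p14, chr2:215436069-215436318, minus strand): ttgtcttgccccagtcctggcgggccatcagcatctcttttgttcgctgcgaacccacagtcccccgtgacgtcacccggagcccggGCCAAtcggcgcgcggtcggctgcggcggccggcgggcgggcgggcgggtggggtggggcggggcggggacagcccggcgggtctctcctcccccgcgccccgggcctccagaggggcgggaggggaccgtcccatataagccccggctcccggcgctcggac
THBS1 (GRCh38.p14, chr15:39580829-39581078, plus strand): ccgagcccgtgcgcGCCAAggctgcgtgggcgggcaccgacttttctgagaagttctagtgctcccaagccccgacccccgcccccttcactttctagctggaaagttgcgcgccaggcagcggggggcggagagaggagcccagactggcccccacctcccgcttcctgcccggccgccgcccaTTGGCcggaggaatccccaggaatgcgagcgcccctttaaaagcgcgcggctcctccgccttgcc
BGN (GRCh38.p14, chrX:153494730-153494979, plus strand): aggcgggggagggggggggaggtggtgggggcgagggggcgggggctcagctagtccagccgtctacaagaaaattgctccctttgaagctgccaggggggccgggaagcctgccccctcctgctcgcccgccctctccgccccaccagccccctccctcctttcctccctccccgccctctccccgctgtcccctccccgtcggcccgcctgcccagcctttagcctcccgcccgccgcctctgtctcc
EFEMP2 (GRCh38.p14, chr11:65872801-65873050, minus strand): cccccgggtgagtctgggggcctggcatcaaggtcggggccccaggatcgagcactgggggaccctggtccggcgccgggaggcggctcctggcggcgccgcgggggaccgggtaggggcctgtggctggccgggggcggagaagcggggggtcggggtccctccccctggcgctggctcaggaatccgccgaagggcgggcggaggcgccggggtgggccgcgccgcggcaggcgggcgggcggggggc

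In NID2 the half-site lies 82 bases before the start, in FN1 163, in HAS3 161 and 39, and in THBS1 236 and 65. Those of NID2 and FN1, and the one at 65 in THBS1, also hold the letters of a CCAAT box. The FBLN2 promoters are 2, and 1 holds a half-site, 106 bases before its start. The FBN1 promoter has no half-site in this window.

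The other genes of matrix building were read from 4 further lists, in which 141 of 148 genes were measured. Of the 141, 22 rose (15.6%) and 40 fell (28.4%), beside 13.6% and 15.4% of all genes, with a median log2 change of -0.04. Among 53 other matrix glycoproteins 8 rose (15.1%) and 14 fell (26.4%). ECM2 read 4.42 ± 0.25 in transfected arrays and 8.09 ± 0.25 in wild type arrays (SD, n = 3 each), a fall by 3.67 (limma adjusted p = 7.69e-06), and IGFBP7, a secreted binder of insulin-like growth factors, fell by 3.62. CCN4, a Wnt-induced matricellular protein, fell 5.64-fold. PXDN, the peroxidase that crosslinks type IV collagen, rose by 1.58, and CCN1, an integrin-binding matricellular protein, by 1.29, both named after their values were seen.

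Among 30 other proteoglycan and hyaluronan genes none rose, 5 fell (16.7%) and 25 did not pass, so the share that fell was close to the 15.4% of all genes. The hyaluronan receptor HMMR fell by 5.12, the TGF-beta co-receptor TGFBR3 fell by 1.37 and the hyaluronidase HYAL3 fell by 0.85. Neighbours along the chromosome are not given for genes of the further lists, and their part in these falls was not tested. CD44, the main hyaluronan receptor, read 12.53 in transfected and 12.55 in wild type arrays (log2 change -0.02, adjusted p = 0.898), and is named after its value was seen. Enzymes that build and sulfate the sugar chains went both ways, with 10 rises (26.3%) and 14 falls (36.8%) among 38. SULF2, which trims sulfate from heparan sulfate outside the cell, fell by 3.85, CSGALNACT1, which starts chondroitin chains, fell by 3.62, and XYLT1, which attaches the first sugar, fell by 2.12. EXT2, a heparan sulfate polymerase subunit named after its value was seen, rose by 1.26. In the crosslinking and maturation list of 20, 4 rose (20%) and 7 fell (35%). The enhancers of procollagen processing PCOLCE2 and PCOLCE fell by 2.91 and 2.24. TGM2, the transglutaminase that crosslinks fibronectin and other matrix proteins, read 7.29 ± 0.18 in transfected arrays and 5.03 ± 0.15 in wild type arrays (SD, n = 3 each), a rise by 2.26 (limma adjusted p = 1.55e-05).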

How the data were processed

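RNA of 3 NF1-C2S transfected and 3 wild type samples was measured on Affymetrix arrays. The authors deposited log2 expression values per probe set, made with RMA per the submitters' processing notes. The sources used here do not give its version. Summaries of this kind compress differences of dim probe sets. Arrays have no read depth, and their number limits the precision. A probe set had a median SD of 0.119 over transfected and 0.110 over wild type arrays. On many matrix probe sets the deposited values of wild type replicate 3 carry more decimals than those of the other arrays. The reason was not examined.

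After 62 control probe sets were left out, 54613 were tested with limma 3.58.1 in R 4.3.3 (two-sided, Benjamini-Hochberg over all of them). The platform annotation gave 41091 probe sets 1 gene, 1801 several and 11721 none. A gene was read by its brightest probe set among those naming it alone. The same method, run on the difference between 2 probe sets of 1 gene, tested disagreement over 21316 pairs. Neighbours were ordered by RefSeq (GRCh38.p14). The fit was tested on simulated data.

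The members and lists were chosen with earlier results of these data known. Values of every array are given for members past the threshold with a change of at least 2-fold and for FN1, THBS1 and FBN1, and up to 3 genes with the largest changes are named per further list.

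Arrays of 1 replicate number deviated together from their group means (correlations 0.398, 0.238 and 0.140, other pairs -0.277 to 0.142), so the number, which both groups' labels carry, was used as a block in an alternative fit. Other alternatives were quantile, median and cyclic loess normalization, trended and robust moderation, array weights, leaving out dim probe sets or each array, and other ways to read a gene.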

Additional observations from a re-analysis of the deposited data

How the results depend on the processing

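Of the 29 matrix genes past the threshold, 20 kept their call and direction under every alternative that gave them a value. The exceptions were FN1, THBS1, TNC, FBN2, MFAP5, AGRN, LAMA2, LAMA4 and LOXL3. Of the 23 that did not pass, 15 passed under none. When probe sets with the suffix _x_at or _s_at were dropped, 3 genes were higher and 15 lower, but 12 genes, 8 of them called, have no other probe set naming them alone. There FN1 turned to 0.017, MFAP5 to 0.023 and AGRN to -0.037, none past the threshold, and THBS1 read -0.09. The 8 called ones were EFEMP2, BGN, FBLN2, EFEMP1, LAMA5, LAMB2, GPC1 and LOX, and this alternative gave them no value. Leaving out 1 array gave 3 to 5 higher and 21 to 24 lower genes, 6 to 10 higher and 40 to 50 lower probe sets, 21 to 26 higher and 36 to 39 lower genes of the further lists, and 12 to 19 genes with disagreeing probe sets. The counts of 3 and of 6 were reached without transfected replicate 2 or wild type replicate 2, and that of 3 also without wild type replicate 1. With the replicate block, which pairs arrays by number, 6 genes were higher and 24 lower, 11 probe sets were higher and 50 lower, and 16 genes disagreed. Beyond LAMA4, SPP1 and HAS2, the block changed no call of a matrix gene. The mean over probe sets ended the calls of TNC, FBN2, MFAP5 and AGRN. The other alternatives moved no count by more than 1.5 times. Arrays give no depth, and 48 of the 133 probe sets, dim in both groups, could show a change only poorly.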
